A study of Caenorhabditis elegans with 2 samples.

Results

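Peaks of PHA-4 chromatin immunoprecipitation were counted around the small nucleolar RNA (snoRNA) genes of Caenorhabditis elegans. The members were all 346 nuclear genes of biotype snoRNA in the Ensembl annotation of the WBcel235 assembly (the ce11 build), out of 46890 nuclear genes. Each was taken as a window from 1000 bp upstream to 500 bp downstream of its start, and the rule itself uses no peak. The start is that of the annotation, and where transcription begins was not measured. The genes were 54 to 344 bp long, with a median of 130 bp. Of the 346, 150 lay wholly in an intron of a protein-coding gene on the same strand and are called intronic. Another 124 overlapped no protein-coding gene and are called independent, 28 lay in an intron of a gene on the opposite strand, and 44 overlapped a protein-coding gene in another way. The 150 intronic genes had 130 distinct hosts. Neighbouring snoRNA genes can share a summit, and the 346 windows formed 323 groups once overlapping windows on the same strand were joined. Windows that overlap on opposite strands were not joined.

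The libraries were 2 biological replicates of 1 group of whole late embryos, males and females pooled, of strain OP37. This strain carries unc-119(ed3) on chromosome III and the insertion wgIs37, which supplies PHA-4 fused to eGFP, and both replicates share this genotype. The authors called peaks against control alignments in each replicate and in both replicates pooled. There was no second genotype or stage, so the comparisons below are between classes of gene and between lists.

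PHA-4 is the worm FoxA transcription factor, known for specifying the pharynx. snoRNAs guide the chemical modification of ribosomal RNA in the nucleolus, box C/D snoRNAs directing 2′-O-methylation and box H/ACA snoRNAs pseudouridylation. Intronic snoRNAs are in general trimmed from the spliced intron of their host, whereas independent snoRNA genes need promoters of their own. tRNA genes, transcribed by RNA polymerase III, carry their promoter inside the gene as an A box and, further downstream, a B box.

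The DNA just upstream of several snoRNA genes with a peak held letters of both boxes, and 6 such stretches are shown with 2 that lack them. Each line gives 120 bases of the WBcel235 reference on the strand of the gene, 100 bases before the start and the first 20 bases of the gene, with the letters of the A box (TGG, any 3 bases, A, any base, T, any base, G) and of the B box (GTTCNANNC) in capitals. ZK546.18 (chrII:4942500-4942619, minus strand), C05D2.15 (chrIII:5602160-5602279, minus strand) and ZK994.7 (chrV:8500479-8500598, plus strand) are intronic genes with a peak at the start, in mdt-4, madf-11 and pxn-1. C04G6.12 (chrII:5105212-5105331, minus strand) and T03F7.8 (chrV:11314158-11314277, plus strand) lie in introns of the opposite-strand genes mpk-2 and cutl-18. F12F6.11 (chrIV:11549845-11549964, minus strand) and Y75B12B.12 (chrV:15191074-15191193, minus strand) are independent. C06A1.9 (chrII:10563045-10563164, minus strand), in cdc-48.1, had the strongest peak of any snoRNA window. That peak had its summit 515 bp upstream of the start and lay wholly outside the bases shown. C04G6.12 and F12F6.11 were chosen after their values were seen.
ZK546.18: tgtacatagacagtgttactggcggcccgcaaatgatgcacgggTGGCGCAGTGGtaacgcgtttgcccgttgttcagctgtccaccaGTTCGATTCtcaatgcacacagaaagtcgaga
C05D2.15: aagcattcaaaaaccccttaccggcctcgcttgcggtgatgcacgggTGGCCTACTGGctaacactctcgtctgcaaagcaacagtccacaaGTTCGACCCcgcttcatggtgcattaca
C04G6.12: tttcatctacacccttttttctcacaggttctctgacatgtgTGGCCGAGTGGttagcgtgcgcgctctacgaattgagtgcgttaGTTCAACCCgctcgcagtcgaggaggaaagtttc
T03F7.8: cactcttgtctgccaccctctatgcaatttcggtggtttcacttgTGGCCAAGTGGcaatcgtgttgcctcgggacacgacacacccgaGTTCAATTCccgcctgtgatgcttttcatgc
F12F6.11: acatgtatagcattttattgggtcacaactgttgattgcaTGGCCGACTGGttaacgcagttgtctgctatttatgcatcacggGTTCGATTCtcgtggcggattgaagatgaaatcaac
Y75B12B.12: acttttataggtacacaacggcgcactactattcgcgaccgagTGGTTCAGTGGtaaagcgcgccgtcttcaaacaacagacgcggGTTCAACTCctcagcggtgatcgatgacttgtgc
ZK994.7: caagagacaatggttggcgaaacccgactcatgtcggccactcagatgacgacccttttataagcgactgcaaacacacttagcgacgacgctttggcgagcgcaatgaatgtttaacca
C06A1.9: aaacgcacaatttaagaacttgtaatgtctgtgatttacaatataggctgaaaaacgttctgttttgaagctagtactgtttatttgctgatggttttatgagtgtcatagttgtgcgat

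The lists counted were the relaxed lists of each library, which the authors describe as peaks together with background, and they differed in size. Replicate 1 held 5607 peaks, replicate 2 held 1729 and the pooled list 7768. The smallest q-value of any peak was 0.351 in the replicate 2 list and 0.00336 in that of replicate 1. A summit is the middle of a deposited peak, and peaks were 344 bp wide in replicate 1, 590 bp (in 1728 of 1729) in replicate 2 and 350 bp in the pooled list. Depth is unknown, since no read counts accompany the peaks, and how the authors' signal values were scaled between libraries is not stated. The pooled list shares its reads with both replicates and is not a further replicate. Intervals in parentheses are exact (Clopper-Pearson) 95% intervals of a share. They cover counting error over genes only and, since genes are not replicates of a condition, no p-value over genes was computed.

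A summit lay in the window of nearly 1 snoRNA gene in 3 in replicate 1, and in few in replicate 2. Replicate 1 had a summit in 105 of the 346 windows, or 30.3% (25.5 to 35.5), against 10.7% of all nuclear genes with the same window. Replicate 2 had a summit in 9 windows, or 2.6% (1.2 to 4.88), against 2.25% of all nuclear genes. The replicate 2 share was thus close to its background. The pooled list had a summit in 105 windows, again 30.3%, against 13.1% of all nuclear genes. Of the replicate 1 genes, 89 were also in the pooled list, which is 84.8% of each list. No list had a summit for 222 snoRNA genes, and none of the 9 peaks of the authors' final list had its summit in a snoRNA window.

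Among other kinds of gene, tRNA genes stood nearest to the snoRNA genes in replicate 1. A summit lay in the window of 28.3% of the 612 tRNA genes (24.7 to 32), of 19.2% of the 261 microRNA genes (14.6 to 24.5) and of 12.7% of the 19973 protein-coding genes (12.3 to 13.2). The snRNA genes, whose products act in splicing, stood at 14% (8.48 to 21.2), and the 7764 genes of biotype ncRNA at 17.1% (16.3 to 18). The 46890 nuclear genes of the background include 15363 of biotype piRNA, which stood at 4.44% (4.12 to 4.78) and lower the background share. Windows of 4 snoRNA genes also held the start of a tRNA gene, and without these 4 the snoRNA share was 30.1%.

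snoRNA summits of replicate 1 gathered at the gene start. Of 116 pairs of a gene and a summit, 30 had the summit in the 100 bp just upstream of the start and 14 in the 100 bp from the start on, while no other 100 bp bin of the window held more than 9. A summit within 100 bp of the start, on either side, is called near-start below. Replicate 1 had one at 44 snoRNA genes, or 12.7% (9.39 to 16.7), against 2.44% of all nuclear genes. The pooled list had one at 42, or 12.1% (8.89 to 16.1), against 2.82%. Replicate 2 had one at 3 genes, or 0.867% (0.179 to 2.51), against 0.328%, and none of the 3 was near-start in replicate 1. Of the replicate 1 genes, 34 were near-start in the pooled list too. The position of these summits therefore rests on replicate 1.

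**Figure D1:**
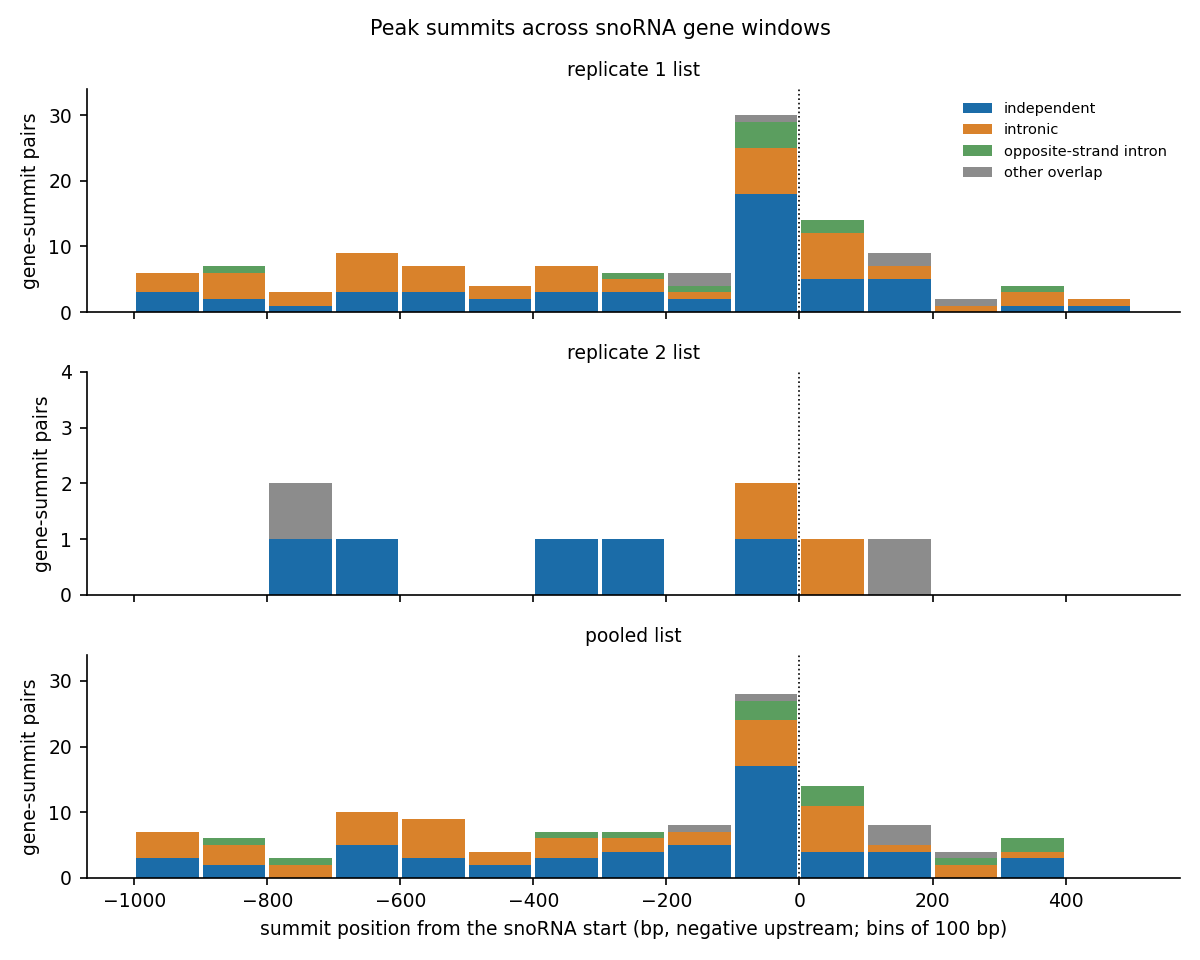
Number of pairs of a snoRNA gene and a summit (vertical axis) in bins of 100 bp from 1000 bp upstream to 500 bp downstream of the start (horizontal axis), for each list, stacked by class of snoRNA gene; the vertical scale differs for replicate 2. The bin just upstream of the start held 30 pairs in replicate 1, 28 in the pooled list and 2 in replicate 2.

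The gathering at the start was also seen at tRNA and snRNA genes, and was less marked at protein-coding and microRNA genes. Near-start summits made up 41.9% of the snoRNA genes with any replicate 1 summit in the window, 50.3% of the tRNA genes, 50% of the snRNA genes, 19.7% of the protein-coding genes and 16% of the microRNA genes. As a share of all genes of the kind, 14.2% of tRNA genes (11.5 to 17.2), 6.98% of the 129 snRNA genes (3.24 to 12.8), 2.51% of protein-coding genes (2.3 to 2.74) and 3.07% of microRNA genes (1.33 to 5.95) had a near-start summit in replicate 1. The snoRNA interval overlapped those of the tRNA and snRNA genes and lay above those of the protein-coding and microRNA genes. It also lay above that of the ncRNA genes, of which 5.38% (4.89 to 5.91) had a near-start summit. These made up 31.5% of the ncRNA genes with any replicate 1 summit in the window. The piRNA genes in the background had a near-start share of 0.371%.

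Intronic snoRNA genes had a near-start summit less often than independent ones in replicate 1, while over the whole window the interval of the difference included 0. A replicate 1 summit lay in the window of 45 of the 150 intronic genes, or 30% (22.8 to 38), and of 44 of the 124 independent genes, or 35.5% (27.1 to 44.6). The difference of intronic minus independent was -5.48 percentage points, with a 95% Newcombe interval of -16.5 to 5.57. A near-start summit was found at 14 intronic genes, or 9.33% (5.2 to 15.2), and at 23 independent genes, or 18.5% (12.1 to 26.5). This difference was -9.22 percentage points (-17.8 to -1.02) in replicate 1 and -7.6 points (-16 to 0.393) in the pooled list, whose interval included 0. Replicate 2 had a summit in the window of 2 intronic and 5 independent genes, but a near-start summit at 2 intronic genes and 1 independent gene, a difference of 0.527 points (-3.22 to 3.99). With windows lengthened to 2000 bp upstream, the difference over the whole window became 9.96 points in replicate 1 and 6.62 points in the pooled list. With windows of 500 bp upstream it was -11.3 and -12.6 points. Over genes without a coding start in the window it was -14.7 and -13.5 points.

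Genes in introns of the opposite strand, which cannot be cut from the transcript of that gene, had shares near those of the independent ones. A replicate 1 summit lay in the window of 10 of the 28, or 35.7% (18.6 to 55.9), and near the start of 6, or 21.4% (8.3 to 41). The 44 genes with another overlap had the lowest share, 6 with a summit in the window, or 13.6% (5.17 to 27.4), and 1 near the start.

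**Figure D2:**
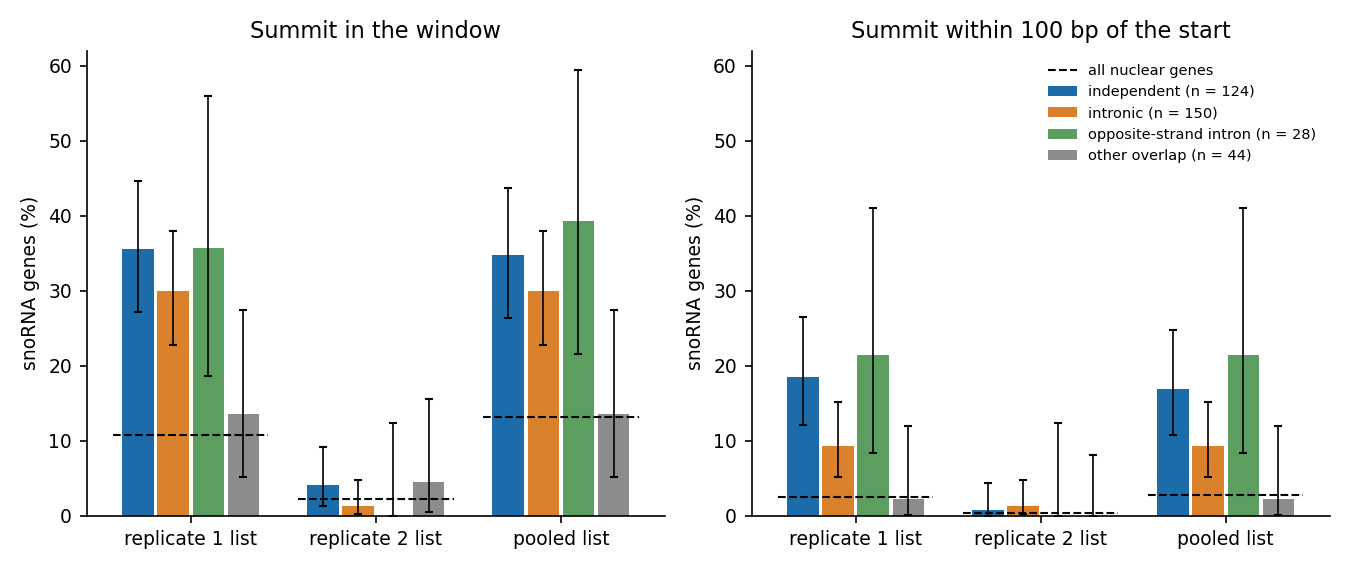
Percent of snoRNA genes with a summit anywhere in the window (left) or within 100 bp of the start (right) in each list, by class; error bars are exact 95% intervals over genes and dashed lines give the percent over all nuclear genes. In replicate 1 the intronic and independent shares were 30% and 35.5% in the window and 9.33% and 18.5% at the start.

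For intronic genes, but not clearly for independent ones, the position of the summits differed with a coding start inside the window. Of the 70 intronic genes whose window held the start of a protein-coding gene, 29 had a replicate 1 summit, or 41.4% (29.8 to 53.8), and 3 of these were near-start. Of the 80 without one, 16 had a summit, or 20% (11.9 to 30.4), and 11 of these were near-start. Independent genes without a coding start in the window had a summit in 33 of 95 cases, or 34.7% (25.3 to 45.2), of which 17 were near-start, or 17.9% (10.8 to 27.1) of the 95. With a coding start the counts were 11 of 29, or 37.9% (20.7 to 57.7), and 6 near-start, or 20.7% (7.99 to 39.7) of the 29. What part coding starts have in the counts was not tested.

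The strongest peaks in intronic windows lay both at and away from the snoRNA start. The authors' signal value, used here to rank peaks within a list, ran from 2.0 to 19.5 over the 110 distinct replicate 1 summits in snoRNA windows, with a median of 4.24, against a median of 2.99 over all nuclear summits. Of these 110, 35 were among the 1000 strongest peaks of the list. Near-start summits had a median signal of 4.53 and the others 3.54. C06A1.9 had the highest signal, 19.5 in replicate 1 (rank 14) and 16.77 in the pooled list, with the summit 515 bp upstream in both. Its host cdc-48.1 encodes an AAA ATPase that unfolds ubiquitylated proteins.

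ZK994.7, in an intron of the peroxidasin gene pxn-1, had a near-start summit of signal 14.82 (rank 51) at 27 bp upstream in replicate 1 and of 13.82 at 33 bp upstream in the pooled list. Its window is 1 of the 4 that also hold the start of a tRNA gene. T08B2.13, in fars-1, which encodes a phenylalanyl-tRNA synthetase subunit, had signal 10.82 in replicate 1 and 9.16 in the pooled list, both 69 bp upstream. ZK546.18, in the Mediator subunit gene mdt-4, had 7.57 at 42 bp upstream in replicate 1 and 6.45 at 43 bp upstream in the pooled list. These 3 genes had no summit in replicate 2.

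C05D2.15, in madf-11, had 6.15 in replicate 1 and 6.31 in the pooled list, both 12 bp downstream of the start. C51F7.3, in frm-7, had 6.04 at 16 bp downstream and 6.39 at 11 bp downstream. The remaining intronic genes among the 10 with the highest replicate 1 signal had far upstream summits. F54C9.12, in iff-2, which encodes an eIF5A homologue, had 10.05 at 653 bp upstream. K11H12.13 and K11H12.12 share 1 summit of signal 7.52 upstream of their host, the ribosomal protein gene rpl-15. F28C6.11, in rpl-26, had 6.06 at 421 bp upstream.

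Independent genes likewise had strong summits both near and far. Y40B1A.6 had the highest, 12.57 in replicate 1 (rank 91) and 13.07 in the pooled list, 462 and 466 bp upstream. W01H2.11, on the X chromosome, followed with 10.5 at 327 bp upstream and 11.76 at 357 bp upstream. Summits near the start were held by T19B4.8, with 9.8 in replicate 1 and 9.76 in the pooled list, both 49 bp upstream. T28B8.11 had 8.56 and 8.33, at 79 and 56 bp upstream, and F25H2.15 had 8.11 and 8.32, at 51 and 94 bp upstream. Y75B12B.12 had 7.29 and 5.64, at 44 and 33 bp upstream. C26C6.13, C01B10.48, T19E7.29 and R11A5.8, the others of the 10 strongest, had replicate 1 signals of 9.79, 9.2, 9.05 and 7.37 with summits 287 to 735 bp upstream.

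On the opposite strand of a host, T03F7.8 had a replicate 1 signal of 15.11 (rank 46) and the same value in the pooled list, both 68 bp downstream of the start. Together with Y40B1A.6, C06A1.9 and ZK994.7 it made up the snoRNA genes whose window held one of the 100 strongest pooled peaks. C04G6.12, with its start in an intron of the MAP kinase gene mpk-2, had 7.96 and 7.83, both 71 bp upstream.

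**Figure D3:**
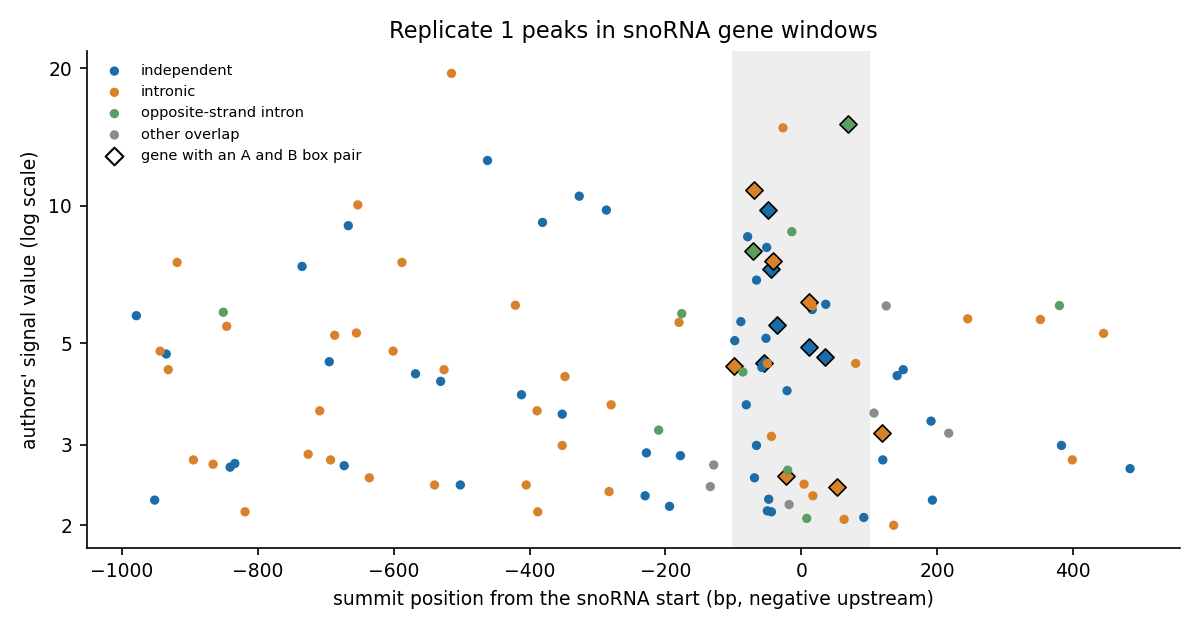
The authors' signal value of each replicate 1 peak with its summit in a snoRNA window (vertical log axis) against the position of the summit from the start in bp (horizontal axis); points are gene and summit pairs coloured by class, diamonds mark genes with an A and B box pair, and the grey band is within 100 bp of the start. The strongest peak, 19.5, lay 515 bp upstream, while 13 of the 14 diamonds in the band and the single one outside it had a signal below that of T03F7.8 at 15.11.

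A summit in the window of both replicates was found for 5 of the 346 snoRNA genes. The same share over all nuclear genes was not counted. The summits of the replicates lay 98 bp or more apart, and the peaks overlapped at 3 of the 5. R166.10, an independent gene, had summits 98 bp apart, at 230 and 328 bp upstream, with signals of 2.32 and 2.4 and overlapping peaks. R11A5.8 had its strongest replicate 1 summit 461 bp from that of replicate 2, with signals of 7.37 and 3.11 and overlapping peaks. F28D1.13, in the ribosomal protein gene rps-23, had a replicate 2 summit 28 bp upstream and replicate 1 summits 427 and 698 bp away from it, of which the nearer belonged to an overlapping peak. K10D3.10 and Y75B12B.12 had summits 679 and 695 bp apart in the replicates, and their peaks did not overlap. K10D3.10, in an intron of K10D3.4, had the highest replicate 2 signal of any snoRNA gene, 4.09 (rank 33), 24 bp downstream of the start. T26H10.10, an independent gene, was the only one of the 5 highest in replicate 2 with no summit in replicate 1, at a signal of 2.33.

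The class of the host gene separated the intronic snoRNA genes in replicate 1, through summits far from the snoRNA start. Hosts were classed by gene symbol. Ribosomal protein genes (rpl-, rps- and rla- symbols) hosted 19 snoRNA genes in 13 hosts, and 13 of the 19 windows held a summit, or 68.4% (43.4 to 87.4). Hosts whose symbols matched none of the classes held 122 snoRNA genes, of which 29 had one, or 23.8% (16.5 to 32.3). The difference was 44.7 percentage points (20.8 to 62.2) in replicate 1 and 31.7 points (8.46 to 51.9) in the pooled list, while replicate 2 had 1 gene with a summit in each class. Hosts with symbols of translation factors or tRNA synthetases had 2 of 4 with a summit, and those with symbols on the nucleolar and RNA processing list, here utp-20 and nol-56, 1 of 5. The symbols miss some genes of these kinds, such as the splicing factor genes prp-8 and uaf-1, which stayed among the others. So did ubl-1, which encodes a ubiquitin-like protein fused to a ribosomal protein, and both of its snoRNA genes, H06I04.8 and H06I04.9, had a summit. With ubl-1 counted as a ribosomal protein host, a choice made after seeing the data, the difference was 48.9 points (26 to 65.1) in replicate 1 and 36.9 points (14.2 to 55.6) in the pooled list.

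None of the 19 snoRNA genes in ribosomal protein genes had a near-start summit in replicate 1. Their summits lay at a median of 618 bp upstream of the snoRNA start, and all 19 windows held a coding start, at a median of 320 bp from the host start to the snoRNA. The 13 genes had 10 distinct summits, of which 5 lay within 200 bp of a coding start. When windows reached 500 bp upstream instead of 1000, the difference to other hosts was 2.2 points in replicate 1 and -3.06 points in the pooled list. Of the 122 windows in other hosts, 48 held a coding start. Of these 48, 14 had a replicate 1 summit, or 29.2% (17 to 44.1), against 68.4% (43.4 to 87.4) in ribosomal protein hosts. The pooled list had 16 of the 48, or 33.3% (20.4 to 48.4), against 57.9% (33.5 to 79.7). In replicate 1 these intervals overlapped only between 43.4% and 44.1%, and in the pooled list more widely. No interval of the difference was computed for these windows, and overlap alone does not show that the shares are alike. D1007.20, in rpl-24.1, was named after its values were seen, with a signal of 4.23 in replicate 1 and 9.02 in the pooled list, both 348 bp upstream.

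The windows of the ribosomal protein genes themselves often held a summit, hosted snoRNA or not. A replicate 1 summit lay in the window of 11 of the 13 ribosomal protein genes with a hosted snoRNA, or 84.6% (54.6 to 98.1), and of 42 of the 68 without, or 61.8% (49.2 to 73.3). The pooled list had the opposite order, 8 of 13, or 61.5% (31.6 to 86.1), and 47 of 68, or 69.1% (56.7 to 79.8). Other protein-coding genes with a hosted snoRNA had a replicate 1 summit in 34 of 117 cases, or 29.1% (21 to 38.2), against 12.4% (12 to 12.9) of those without. The host with the most snoRNA genes, nol-56, encodes a core protein of box C/D snoRNA particles. Of its 4 snoRNA genes, K07C5.11 alone had a summit, 283 bp upstream with a signal of 2.37 in replicate 1.

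**Figure D4:**
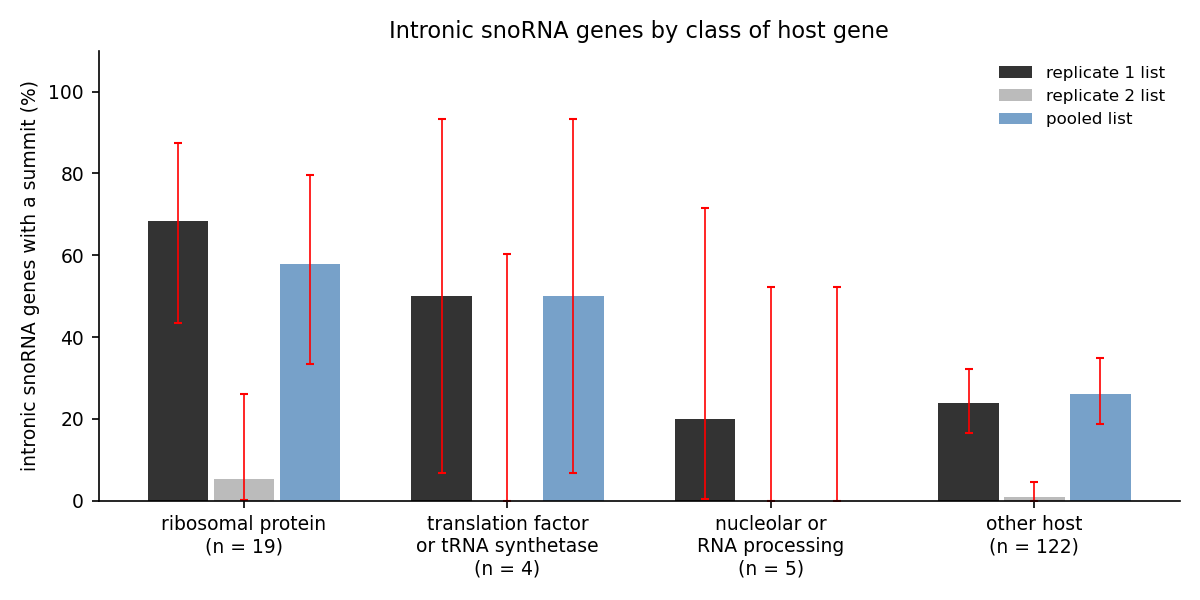
Percent of intronic snoRNA genes with a summit in the window (vertical axis) by class of host gene, set by gene symbol, and by list; error bars are exact 95% intervals over genes. The ribosomal protein hosts stood at 68.4% in replicate 1 and 57.9% in the pooled list, and other hosts at 23.8% and 26.2%.

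The A and B box letters printed above were searched on the strand of the gene, with both boxes starting in the 100 bases before the snoRNA start and their starts 25 to 80 bases apart. The letters were chosen after the sequences at near-start summits had been seen, so what follows is a description. Such a pair was found at 18 snoRNA genes, 8 intronic, 7 independent and 3 in an intron of the opposite strand. Although any spacing from 25 to 80 was allowed, all 18 had their boxes 43 to 45 bases apart, 10 of them at 44. The A box started 68 to 50 bases before the snoRNA start, with a median of 56.5, and the B box 24 to 5 bases before it, with a median of 13. A pair stood before 28 of the 46890 nuclear genes, or 0.0597%, so 10 of the 46544 genes that are not snoRNA genes had one. Of all nuclear genes, 1.6% had the A box letters alone or with the other box in these 100 bases on the gene strand, 3.9% on either strand, and 1.62% and 2.86% had the B box letters. Inside tRNA genes, which carry these boxes, 42.8% of the 612 held a pair of these letters, 47.4% the A box and 95.9% the B box.

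Most snoRNA genes with the pair had a near-start summit, while most genes with such a summit had no pair. Of the 18 genes with a pair, 14 had a near-start summit in replicate 1, 12 in the pooled list and 0 in replicate 2. The pair was present at 14 of the 44 genes with a near-start summit in replicate 1, or 31.8% (18.6 to 47.6). It was present at 1 of the 61 genes with a summit elsewhere in the window, or 1.64% (0.0415 to 8.8), and at 3 of the 241 genes without one, or 1.24% (0.257 to 3.59). In the pooled list the counts were 12 of 42, 0 of 63 and 6 of 241. At least one of the boxes was present at 26 of the 44 near-start genes, or 59.1% (43.2 to 73.7), at 5 of the 61 and at 24 of the 241. With the B box spelled with one more fixed letter, a G before the others, 9 genes had a pair, of which 5 were near-start and 3 without a summit in replicate 1, and 3 and 6 in the pooled list.

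Genes with the pair were found in 3 of the 4 classes, and none among the 44 genes with another overlap. A near-start summit of replicate 1 was held by 6 of the 8 intronic genes with a pair, 6 of the 7 independent and 2 of the 3 in an intron of the opposite strand. Without a pair, a near-start summit was held by 8 of 142 intronic genes, or 5.63% (2.46 to 10.8), and by 17 of 117 independent genes, or 14.5% (8.7 to 22.2). The near-start summits of genes with the pair lay from 99 bp upstream, at Y38F2AR.14, to 68 bp downstream, at T03F7.8. T24H7.6, H04D03.5 and Y59E1B.14, named like Y38F2AR.14 after their values were seen, had the pair and no summit in any list.

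**Figure D5:**
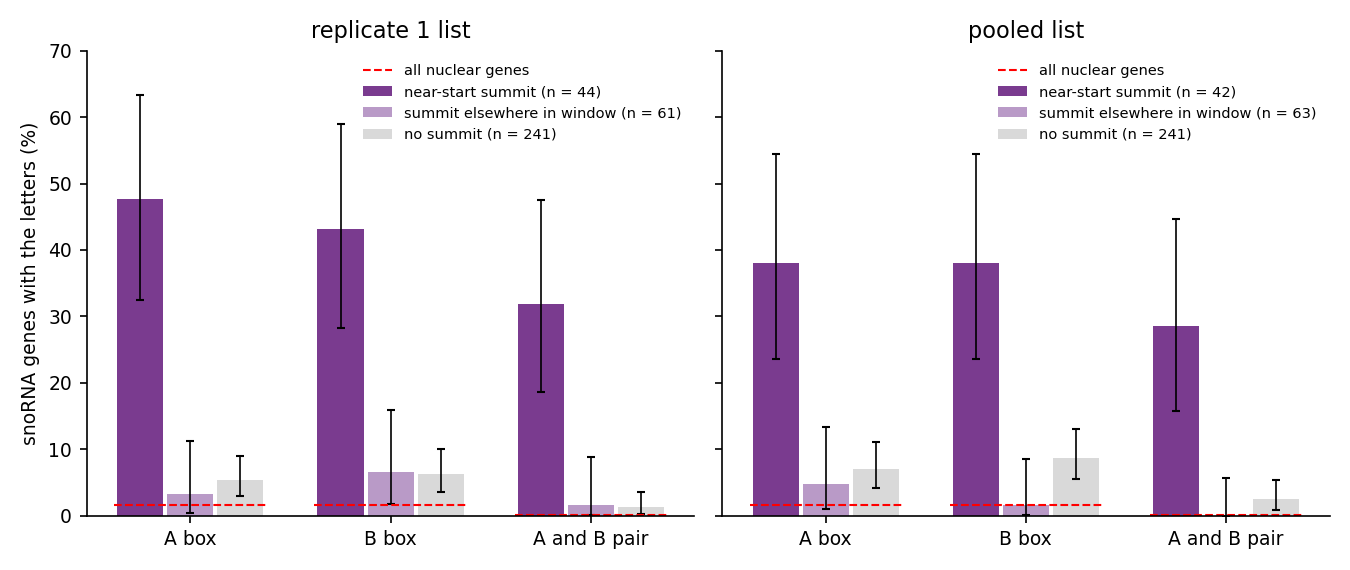
Percent of snoRNA genes with the A box letters, the B box letters or a pair of both in the 100 bases before the start (vertical axis), for genes with a near-start summit, a summit elsewhere in the window or none, in replicate 1 (left) and the pooled list (right); error bars are exact 95% intervals over genes and dashed lines give all nuclear genes. In replicate 1 the pair stood at 31.8%, 1.64% and 1.24% of the 3 sets of genes.

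The PHA-4 consensus, read as T, A or G, T, T, G or T, A or G, C or T on either strand, had overlapping intervals at near-start and other snoRNA summits. Overlap of its matches with the boxes was not counted. It was found within 100 bp of 22 of the 44 near-start replicate 1 summits, or 50% (34.6 to 65.4), and of 38 of the 66 other summits in snoRNA windows, or 57.6% (44.8 to 69.7). All 5594 nuclear summits of the list had it in 57.4%. In the pooled list the shares were 42.9% (27.7 to 59) near the start, 50.7% (38.7 to 62.6) elsewhere and 54.3% over all nuclear summits. The share of stretches of the same length away from summits was not counted. The values thus do not show whether the letters are commoner at summits than in other DNA.

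The letters at the ends of the snoRNA genes gave a partial split by type. Only 24 genes carried both the C box and D box letters at their ends, 58 ended with ACA before the last 3 bases, as H/ACA snoRNAs do, and 264 had neither, so the type of most genes was not assigned here. A replicate 1 summit lay in the window of 9 of the 24 with C and D box letters, or 37.5% (18.8 to 59.4), and of 30 of the 58 with ACA, or 51.7% (38.2 to 65). Genes with neither stood at 66 of 264, or 25% (19.9 to 30.7). Near-start summits were held by 5 of the 24, or 20.8% (7.13 to 42.2), 14 of the 58, or 24.1% (13.9 to 37.2), and 25 of the 264, or 9.47% (6.22 to 13.7). In the pooled list, the 2 sets changed order, with 45.8% (25.6 to 67.2) of the genes with C and D box letters and 43.1% (30.2 to 56.8) of those with ACA having a summit in the window.

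By chromosome, the share of snoRNA genes with a replicate 1 summit in the window was lowest on X and highest on II. It was 15.2% on X (5 of 33, 5.11 to 31.9) and 40.8% on II (29 of 71, 29.3 to 53.2). These intervals overlapped only between 29.3% and 31.9%. No interval of the difference was computed between chromosomes, and overlap alone does not show that the shares are alike.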

How the data were processed

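The peak lists were deposited by the authors in the ce11 build, with the control and pooling of each given by their file listing. The values used per peak were the deposited signal, made by the authors against control alignments, and the deposited −log10 q-value. The aligner, the caller and the threshold of the final list were not stated in the labels or file listing. Without read counts, the precision that depth gives is unknown. Lists in ce10 were not used here.

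A summit was the deposited peak start plus its offset. Genes, introns and hosts came from Ensembl release 115, and sequences from the RefSeq copy of WBcel235. Counts were made with Python 3.11.15, pandas 2.3.3, numpy 2.4.6 and scipy 1.17.1, figures with matplotlib 3.10.9, and the counting was tested on simulated data. Host classes were set by gene symbol.

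The 2 replicates were set side by side and no test was made, as there is 1 group. The genes named were those with a summit in both replicates, the 10 intronic and 10 independent genes of highest replicate 1 signal, the 5 of highest replicate 2 signal, those with one of the 100 strongest pooled peaks, their hosts and the host with the most snoRNA genes. Although the rule for members uses no peak, members and lists were chosen with earlier results of these data known, and the box letters and the near-start distance after seeing the data. Alternatives changed the peaks entering, the window, the overlap rule and the genes counted.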

Additional observations from a re-analysis of the deposited data

How the results depend on the processing

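Over 14 results, 110 alternatives were run, of which 79 left the value unchanged, 30 moved it and 1 reversed it. A count was unchanged within a fixed ratio of the reported one, and a difference within the reported interval. Reversed was used only where the reported interval excluded 0, so the changes of sign at 2000 bp upstream are among the moved. The alternatives of the near-start counts, the box pair and ubl-1 were chosen after seeing the data. With the 1000 strongest peaks of each list, snoRNA genes with a summit were 37 in replicate 1, 5 in replicate 2, 29 in the pooled list and 1 in both replicates, near-start genes 17 and 15 (pooled), against backgrounds of 2.57%, 1.23% and 2.55% of all nuclear genes in the window. At a q-value of 0.05 or less, the pooled list had 39 and 19 near the start, against 3.25% of all nuclear genes in the window. Replicate 2 and both replicates had 0, since no replicate 2 peak passes that limit. The replicate 2 differences between classes were then fixed at 0 in advance. They lie within the reported intervals and so are among those called unchanged. Without windows that hold a coding start the counts were 59, 4, 60 and 1 in both, from 229 genes. Counting any overlap of the peak gave 14 in replicate 2 and 8 in both, and windows of 500 bp upstream gave 2 in both. Within 50 bp, near-start genes were 24 and 21 (pooled). The matching share of all nuclear genes was not counted for these near-start alternatives. Nor was it for the counts without coding starts, by overlap or at 500 bp upstream.

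Leaving out a replicate meant taking the other replicate's own list, with no new pooling or peak calling, so it repeats values given above. In place of the pooled count of 105, the replicate 1 list had 105 and the replicate 2 list 9. Intronic minus independent went from -5.48 and -4.68 (pooled) to 9.96 and 6.62 points at 2000 bp upstream. At 500 bp upstream it was -11.3 and -12.6 (pooled), and without windows that hold a coding start -14.7 and -13.5 (pooled). Over the replicate lists, intronic minus independent was -5.48 points (replicate 1) and -2.7 points (replicate 2). The cause was not tested. Ribosomal protein minus other hosts was 8.41 points with the strongest peaks (replicate 1), and 2.2 and -3.06 (pooled, reversed) at 500 bp upstream. It was 44.7 points in the replicate 1 list and 4.44 points in that of replicate 2. It has no value without coding starts, since all 19 windows hold one. The box pair was commoner at near-start genes than at genes without a summit by 30.6 points (26.1 pooled), by 45.8 (44.2 pooled) with the strongest peaks, by 44.9 (pooled) at the q-value limit, and by 10.1 (4.65 pooled) with the longer B box.

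No paired analysis was possible because the series has 1 group.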

Other observations

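The A and B box letters were also searched over the whole nuclear genome at the spacing seen before snoRNA genes. That spacing, 43 to 45 bases between the starts of the boxes, was known beforehand. The letters had been chosen after the sequences at near-start snoRNA summits were seen. The snoRNA share below is thus partly set by that choice, and setting it beside the other shares is a description only. Of the 18 pairs before a snoRNA gene, 14 had a replicate 1 summit within 100 bp of the middle of the pair, or 77.8% (52.4 to 93.6). Of the 233 pairs inside an annotated tRNA gene, 34 had one, or 14.6% (10.3 to 19.8), and of the 760 pairs elsewhere, 10, or 1.32% (0.633 to 2.41). In the pooled list the counts were 12 of 18, 34 of 233 and 15 of 760. Replicate 2 had 0 of 18, 0 of 233 and 2 of 760. All pairs before snoRNA genes lie in windows already counted, so these values add no further snoRNA gene.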
